A study of Mus musculus with 20 samples.

Results

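The mRNA of 9 innate immune receptors and of the adaptor Myd88 was measured in the distal colon (DC) of mice fed resistant potato starch (RPS). The 10 genes were Tlr1, Tlr2, Tlr3, Tlr4, Tlr5, Tlr7, Tlr9, Nod1, Nod2 and Myd88. They were taken by name, through the Ensembl identifiers of the count table, and all 10 were found among its 26619 gene rows. All 10 also passed the filter on low counts that left 17893 genes for testing. C57BL/6 mice, 3 weeks old at the start, ate the Total Western Diet (TWD), a purified diet modelled on human intake in the United States, for 6 weeks. The same diet was then continued without RPS (0% RPS) or with 2, 5 or 10% RPS by weight for another 3 weeks, with 5 mice in each group and 20 in all. The sample labels call the supplement raw potato starch. A piece of whole DC from near the anus was sequenced from each mouse, so each value sums over epithelium, immune cells, muscle and every other cell in the piece.

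Toll-like receptors (TLRs) are membrane proteins that recognise molecules shared by many microbes. TLR1, TLR2, TLR4 and TLR5 sit mainly at the cell surface and detect bacterial lipoproteins, lipopolysaccharide and flagellin, whereas TLR3, TLR7 and TLR9 detect nucleic acids in endosomes. NOD1 and NOD2 are cytosolic receptors for fragments of bacterial peptidoglycan. MYD88 is the adaptor through which most TLRs, with TLR3 as the known exception, pass their signal on to NF-kB. In the colon these receptors face a dense microbial community, and they are carried by epithelial cells and by the macrophages and lymphocytes below them.

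Groups followed the description label. The treatment label gave another diet for 3 mice. Descriptions placed RS10_717 at 5%, RS10_725 at 10% and RS10_748 at 2% RPS, whereas the treatment labels placed them at 2, 5 and 10%. Total counts ran from 18.4 to 35 megacounts per mouse and averaged 32.8 megacounts at 0%, 27.9 at 2%, 28.3 at 5% and 24.3 at 10% RPS. One library, RS10_721 at 5% RPS, held pancreatic transcripts and the lowest smooth muscle score of its group, and RS10_784 at 10% RPS and RS10_715 at 2% RPS also held pancreatic transcripts. Leaving out each of these mice in turn left the number of receptor genes called at 0 in every comparison. Epithelial, smooth muscle and immune markers were all present in the tissue, but of 6 neutrophil markers only 1 passed the filter. Mice were separate animals, and p-values measure the spread between them.

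Reads were short, so the sequences that the genes share with others limit how well a read can be assigned. Of all stretches of 50 bases in the transcripts of Tlr1, 14.8% also occurred in another gene, and 454 of the 513 shared stretches were in Tlr6, the neighbouring receptor that also pairs with TLR2. The coding sequences of Tlr1 (2385 bases) and Tlr6 (2418 bases) were 81.7% identical over their alignment. The longest identical run is shown because a read from it fits both genes. It lies within the coding sequence, at chr5:65082880-65083108 in Tlr1 and at chr5:65111171-65111399 in Tlr6 (GRCm39, minus strand), and holds 229 bases.
Tlr1 and Tlr6: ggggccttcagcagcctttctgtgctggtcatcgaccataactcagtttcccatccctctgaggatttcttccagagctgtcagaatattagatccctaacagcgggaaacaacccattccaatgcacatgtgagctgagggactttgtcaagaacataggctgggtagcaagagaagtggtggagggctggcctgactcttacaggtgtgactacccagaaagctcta
Shared stretches made up 12.6% of the transcripts of Nod2, mostly with the gene model Gm64159, and 12.4% of those of Myd88, all with Acaa1a, whose exons overlap it on the opposite strand. For Tlr7 the share was 6.99% and for Tlr3, which overlaps Gm45542 on the opposite strand, 5.71%. Tlr4, Tlr5 and Nod1 shared 2.11% or less, and Tlr2 and Tlr9 shared none. The treatment of reads that match several genes, and whether counting used strand, are not given in the sources used here. By shared sequence, the levels of Tlr1, Nod2 and Myd88 are therefore the least certain. As counted, Tlr6 had a mean of 1.39 and Tlr1 of 66.6 counts per megacount of library.

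The receptors fell into abundant and scarce genes. As counts per megacount of library after scaling (CPM), divided by kilobases of exon (CPM per kb), Tlr1 was highest at 19.7 ± 2.11 (SD, n = 20 mice). Myd88 followed at 10.0 ± 0.904, Tlr4 at 6.14 ± 0.754, Nod1 at 5.48 ± 0.550, Tlr3 at 4.45 ± 0.560 and Tlr2 at 2.40 ± 0.424. The other four lay close together, with Tlr9 at 0.450 ± 0.169, Tlr5 at 0.443 ± 0.0785, Tlr7 at 0.384 ± 0.0940 and Nod2 at 0.357 ± 0.123 CPM per kb. Ranges over the 20 mice did not overlap between Tlr1 and Myd88, between Myd88 and Tlr4, between Tlr3 and Tlr2, or between Tlr2 and Tlr9. Neighbours within the groups of Tlr4, Nod1 and Tlr3 and of Tlr9, Tlr5, Tlr7 and Nod2 overlapped. Tlr1 ranked above 81.4% of tested genes by mean CPM, before any correction for length, and Tlr9 above 19.7%.

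Abundant genes also varied least from mouse to mouse. The coefficient of variation of CPM over the 20 mice was 8.99% for Myd88, 10.0% for Nod1, 10.7% for Tlr1, 12.3% for Tlr4 and 12.6% for Tlr3. It was 17.7% for both Tlr2 and Tlr5, 24.5% for Tlr7, 34.5% for Nod2 and 37.5% for Tlr9. Scarce genes rested on few reads, down to 17 counts of Tlr9 in one mouse, whereas no mouse had fewer than 1051 counts of Tlr1. For Tlr9 the highest mouse had 4.33 times the CPM of the lowest, and for Myd88 1.40 times.

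**Figure D1:**
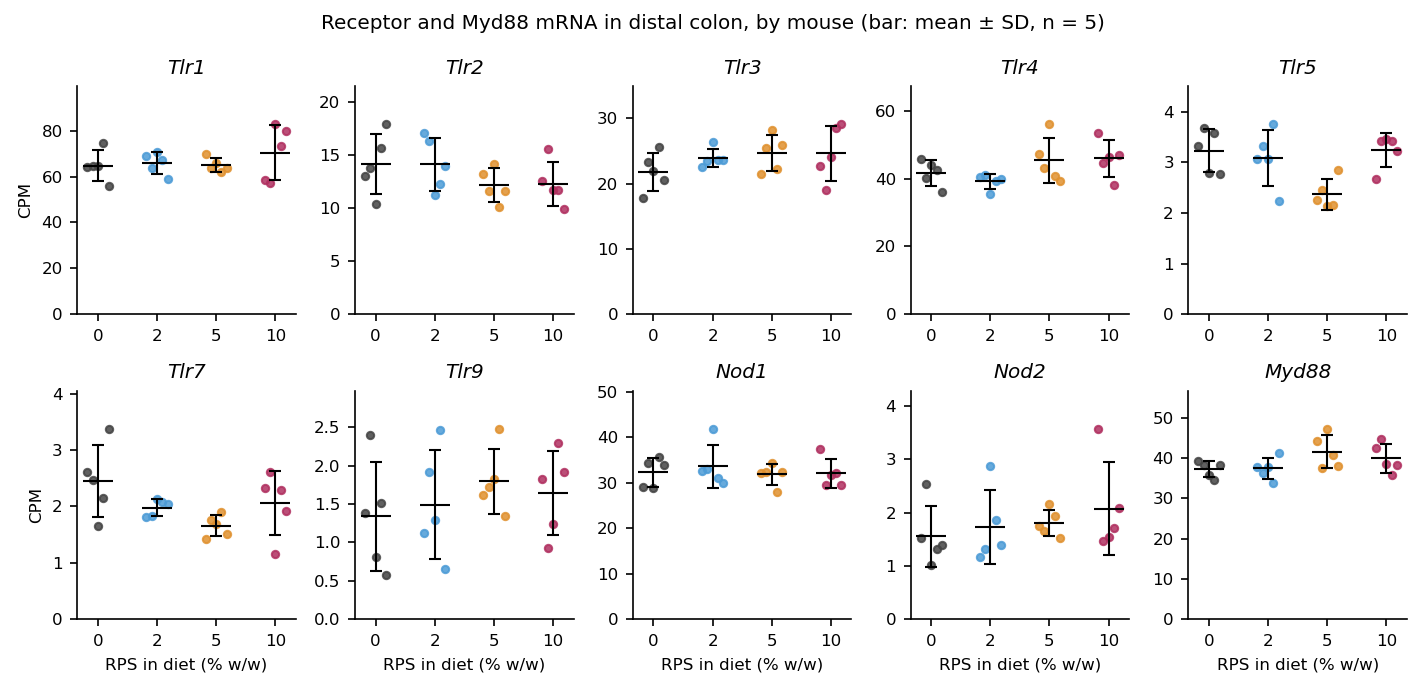
CPM of each gene (vertical axis) in each mouse by RPS in the diet (horizontal axis); points are mice, bars are the mean ± SD of 5 mice, and each panel has its own scale from 0. In each panel 0% RPS overlaps with each other diet, and 4 of the 5 mice at 5% RPS lie below all 0% RPS mice for Tlr5. The share of all tested genes that overlap was not counted, so this only describes the panels.

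None of the 10 genes was called in any diet comparison. The question was whether the starch changed the expression of microbial sensors in the DC. Calls needed an adjusted p no higher than 0.05 and a fold change no smaller than 1.5 in either direction, from the edgeR quasi-likelihood test with Benjamini-Hochberg adjustment over all 17893 genes. At 10% against 0% RPS, 0 of 10 were called, where 0.0391% of all tested genes were, and the genes' adjusted p-values lay between 0.476 and 0.995. By unadjusted p under 0.05, 0 of 10 passed against 15.2% of all genes, and DESeq2 called 0 of 10 against 1.21%. At 5% RPS, 0 of 10 were called against 0% of all genes, 2 of 10 had an unadjusted p under 0.05 against 9.19%, and DESeq2 called 0 of 10 against 0.156%. At 2% RPS the counts were 0 of 10 called against 0%, 0 of 10 with an unadjusted p under 0.05 against 1.41%, and 0 of 10 called by DESeq2 against 0.00386%.

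Tests over all 4 diets gave the same counts of calls. For a linear trend over RPS percent, for which the adjusted p had to reach 0.05 with no limit on the fold, 0 of 10 were called against 2.1% of all genes. With an unadjusted p under 0.05 the trend counted 1 of 10 against 19.1%, and DESeq2 called 0 of 10 against 6.02%. For any difference between diets, 0 of 10 were called against 0.0727%, 1 of 10 had an unadjusted p under 0.05 against 10.6%, and DESeq2 called 0 of 10 against 2.01%. The median log2 fold change of the 10 genes at 10% RPS was 0.11, with 7 genes higher and 3 lower, beside −0.01 over all tested genes.

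The precision differed between genes, which sets what the calls of 0 can say. At 10% RPS, the 95% confidence interval of the fold change lay within 1.5-fold in either direction for 7 of the 10 genes, and it reached past it for Tlr7, Tlr9 and Nod2. At 5% RPS it lay within for 6 genes and at 2% RPS for 7. For Tlr9 and Nod2 a rise of over 1.5-fold at 10% RPS lay within the interval at this depth and spread.

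**Figure D2:**
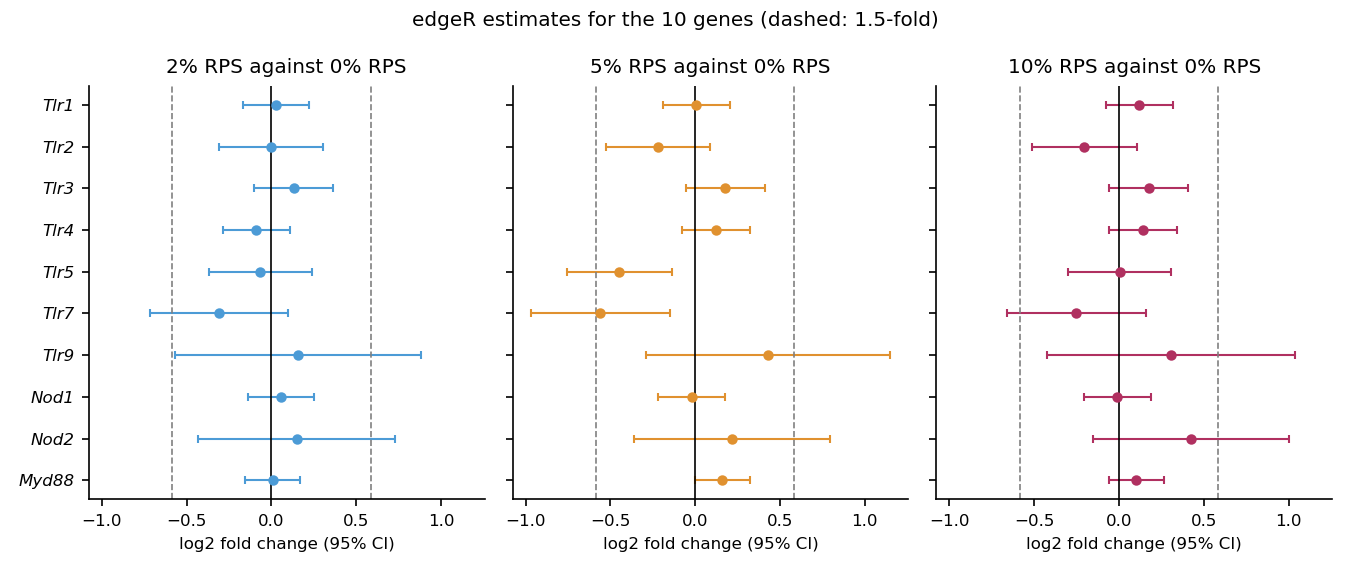
The log2 fold change of each gene (horizontal axis; point, with its 95% confidence interval) at 2, 5 and 10% RPS against 0% RPS, from one edgeR fit over 20 mice; dashed lines mark 1.5-fold. Tlr1, Tlr3, Tlr4, Nod1 and Myd88 have narrow intervals inside the dashed lines, and only Tlr5 and Tlr7 at 5% RPS have intervals that leave out 0.

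Among the surface receptors for bacterial lipoproteins, Tlr1 (ENSMUSG00000044827, chr5:65082022-65090941, minus strand, GRCm39 as for all genes here) was at 64.8 ± 6.63 CPM at 0%, 66.0 ± 4.71 at 2%, 65.1 ± 3.04 at 5% and 70.4 ± 11.9 at 10% RPS (SD, n = 5 each). Its log2 fold change at 10% RPS was 0.12 ± 0.10 (SE), with an adjusted p of 0.587. Spread was widest at 10% RPS, where RS10_727 had 57.2 and RS10_729 had 82.9 CPM.

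Tlr2, its partner (ENSMUSG00000027995, chr3:83743576-83749074, minus strand), was at 13.0, 13.7, 10.3, 15.7 and 17.9 CPM in the 0% RPS mice RS10_701, RS10_703, RS10_704, RS10_707 and RS10_708. In the 10% RPS mice RS10_725, RS10_727, RS10_729, RS10_731 and RS10_784 it was at 12.5, 15.6, 11.7, 11.7 and 9.92 CPM. The groups overlapped over most of their range. Its log2 fold change was −0.20 ± 0.15 (SE) at 10% RPS, with an adjusted p of 0.543, and −0.22 ± 0.15 at 5% RPS.

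Tlr4, the lipopolysaccharide receptor (ENSMUSG00000039005, chr4:66745783-66849936, plus strand), had the lowest p of the trend tests. In the 0% RPS mice, in the order above, it was at 45.8, 40.2, 43.9, 42.6 and 36.1 CPM. In the 2% RPS mice RS10_709, RS10_712, RS10_715, RS10_716 and RS10_748 it was at 40.4, 41.2, 35.4, 39.2 and 39.9 CPM. In the 5% RPS mice RS10_717, RS10_718, RS10_719, RS10_721 and RS10_724 it was at 47.3, 43.2, 56.1, 40.9 and 39.3 CPM, and in the 10% RPS mice at 53.6, 44.6, 46.5, 38.2 and 46.9 CPM. The upper values at 5 and 10% RPS lay above all mice of the 2 lower diets, while each group also held mice within their range. The fitted slope was 0.19 ± 0.09 (SE) on the log2 scale over 10% RPS, with an unadjusted p of 0.0479 and an adjusted p of 0.255 (edgeR), so it did not pass.

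Tlr5, the flagellin receptor (ENSMUSG00000079164, chr1:182782311-182805500, plus strand), had its lowest mean at 5% RPS. The 0% RPS mice had 3.32, 3.67, 2.80, 3.57 and 2.77 CPM and the 5% RPS mice 2.25, 2.45, 2.13, 2.16 and 2.86 CPM. At 2% RPS the values were 3.06, 3.31, 3.06, 3.75 and 2.24 CPM and at 10% RPS 2.66, 3.43, 3.46, 3.42 and 3.22 CPM. Of the 5% RPS mice, 4 lay below every 0% RPS mouse, and RS10_724 lay within their range. The log2 fold change at 5% RPS was −0.45 ± 0.15 (SE), with an unadjusted p of 0.00638 and an adjusted p of 0.366, and 0.222 by DESeq2. At 10% RPS the difference was 0.00 ± 0.15, so the lower values were not found at the higher dose.

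Of the endosomal receptors, Tlr3, the sensor of double-stranded RNA (ENSMUSG00000031639, chr8:45848702-45864117, minus strand), was at 21.9 ± 2.91 CPM at 0%, 23.9 ± 1.43 at 2%, 24.7 ± 2.73 at 5% and 24.7 ± 4.23 at 10% RPS. Means were higher in each RPS group, by 0.13 ± 0.11, 0.18 ± 0.11 and 0.18 ± 0.11 (SE) on the log2 scale, and the adjusted p at 10% RPS was 0.476. All groups overlapped.

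Tlr7, a sensor of single-stranded RNA (ENSMUSG00000044583, chrX:166086758-166113605, minus strand), was at 2.61, 2.47, 1.65, 2.14 and 3.38 CPM in the 0% RPS mice and at 1.42, 1.76, 1.69, 1.91 and 1.52 CPM in the 5% RPS mice. The 2% RPS mice had 1.81 to 2.14 CPM, and the 10% RPS mice had 2.32, 2.61, 1.15, 2.29 and 1.92 CPM. The 2 lowest mice at 5% RPS lay below all 0% RPS mice, and the other 3 lay between RS10_704 and the next 0% RPS mouse. Its log2 fold change at 5% RPS was −0.56 ± 0.20 (SE), with an unadjusted p of 0.00978 and an adjusted p of 0.384, or 0.265 by DESeq2. Without 1 mouse at a time, the adjusted p at 5% RPS ranged from 0.194 to 0.727 for Tlr7 and from 0.199 to 0.651 for Tlr5.

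Macrophage and fibroblast markers were also lower at 5% RPS. All 10 genes of the macrophage list (among them Csf1r, the receptor for the growth factor that macrophages depend on, and the complement genes C1qa, C1qb and C1qc) had a lower mean at 5% RPS than at 0%, 9 of them with an unadjusted p under 0.05 against 9.19% of all tested genes, and the median log2 fold change was −0.54. None of them was called by edgeR. At 10% RPS all 10 also had a lower mean than at 0%, 6 of them with an unadjusted p under 0.05 against 15.2% of all tested genes. The mean log2 CPM over the list was 4.41 ± 0.348 at 0%, 4.14 ± 0.0671 at 2%, 3.91 ± 0.146 at 5% and 4.06 ± 0.122 at 10% RPS (SD, n = 5 each), and no marker fell below 4.86 CPM in any mouse. Of the fibroblast markers, 6 of 6 had a lower mean at 5% RPS, with a median of −0.26, and 3 of them had an unadjusted p under 0.05. Their score was 7.62 ± 0.286 at 0%, 7.64 ± 0.201 at 2%, 7.35 ± 0.212 at 5% and 7.66 ± 0.179 at 10% RPS, and no fibroblast marker fell below 39.9 CPM. Other lists differed too at 5% RPS, with lower means for 7 of 8 smooth muscle and 5 of 6 endothelium markers. Only 1 of 10 epithelium and 1 of 8 surface colonocyte markers had a lower mean. The part of macrophages, fibroblasts or other cells in the values of Tlr5 and Tlr7 was not tested. In whole tissue, fewer cells of a type and less RNA per cell cannot be told apart.

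Tlr9, the sensor of unmethylated CpG DNA (ENSMUSG00000045322, chr9:106099797-106104082, plus strand), ranged widely within each diet. It was at 1.39, 2.40, 0.808, 1.52 and 0.573 CPM in the 0% RPS mice and at 1.82, 0.925, 1.24, 2.29 and 1.92 CPM in the 10% RPS mice. The log2 fold change of 0.31 ± 0.35 (SE) had a 95% confidence interval from −0.42 to 1.04 and an adjusted p of 0.733. It was 0.12 without RS10_708, 0.63 without RS10_703 and 0.07 by the treatment label.

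The cytosolic receptors differed from each other in precision. Nod1, which senses peptidoglycan fragments typical of Gram-negative bacteria (ENSMUSG00000038058, chr6:54900927-54949647, minus strand), was at 32.3 ± 3.17 CPM at 0%, 33.6 ± 4.73 at 2%, 31.8 ± 2.29 at 5% and 32.1 ± 3.22 at 10% RPS. Its log2 fold change at 10% RPS was −0.01 ± 0.09 (SE), with a 95% confidence interval from −0.21 to 0.19.

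Nod2, the receptor for muramyl dipeptide (ENSMUSG00000055994, chr8:89373943-89415102, plus strand), was at 1.53, 2.53, 1.02, 1.31 and 1.39 CPM in the 0% RPS mice. In the 10% RPS mice it was at 3.58, 1.47, 1.54, 1.71 and 2.08 CPM. The highest value came from RS10_725, one of the 3 mice whose labels disagree, and the other 4 lay within the range of the 0% RPS mice. The log2 fold change of 0.42 ± 0.28 (SE) had a 95% confidence interval that reached from −0.16 to past the 1.5-fold limit and an adjusted p of 0.496, and the estimate was 0.13 without RS10_725, 0.68 without RS10_703, 0.08 by the treatment label and 0.14 without the 3 mice whose labels disagree.

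Myd88 (ENSMUSG00000032508, chr9:119165000-119170486, minus strand), the adaptor of most TLRs, was among the steadiest genes. It was at 37.2 ± 2.03 CPM at 0%, 37.4 ± 2.71 at 2%, 41.6 ± 4.16 at 5% and 40.0 ± 3.64 at 10% RPS. Of the 5% RPS mice 3 and of the 10% RPS mice 2 lay above all 0% RPS mice. Log2 fold changes were 0.16 ± 0.08 at 5% and 0.10 ± 0.08 at 10% RPS (SE), with adjusted p-values of 0.545 and 0.569.

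Genes around the receptors were read from lists of co-receptors, adaptors, kinases, other receptors, NF-kB subunits, inhibitors and induced cytokines, 87 genes of which 80 were tested. None of the 80 was called at 10, 5 or 2% RPS by edgeR. At 10% RPS, 16 (20%) had an unadjusted p under 0.05 against 15.2% of all tested genes, the median log2 fold change was 0.06, and DESeq2 called 3 (Nlrp6, Nfkbiz and Cxcl10) against 1.21% of all genes. A linear trend was called for 3 of 80 (3.75%), against 2.1% of all genes, of which 2 rose and 1 fell. DESeq2 called a trend for 9, against 6.02% of all genes.

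The genes that rose were Nfkbiz and Cxcl10, and the part of receptor signalling in this was not tested. Cxcl10 was also counted in a list of 14 interferon-stimulated genes. All 14 had higher means at 10% RPS. Of them, 10 had an unadjusted p under 0.05 (edgeR), against 15.2% of all tested genes. The list was chosen with earlier results of these data known, so this count is a description and no independent support. Nfkbiz, an atypical IkB protein that TLR signalling induces, rose from 44.2 ± 12.3 CPM at 0% to 47.0 ± 7.36 at 2%, 59.4 ± 9.12 at 5% and 72.4 ± 11.2 at 10% RPS (SD, n = 5 each), a slope of 0.74 on the log2 scale over 10% RPS with an adjusted p of 0.0181. Cxcl10, an interferon-induced chemokine, rose from 0.942 ± 0.383 to 1.25 ± 0.429, 1.90 ± 0.343 and 2.32 ± 1.09 CPM, a slope of 1.26 with an adjusted p of 0.0335. Sigirr, an inhibitory receptor of the TLR and interleukin-1 families, fell from 53.4 ± 4.89 to 52.7 ± 2.59, 51.7 ± 2.76 and 45.3 ± 2.33 CPM, a slope of −0.24 with an adjusted p of 0.0438. All 3 calls ended with the labels of 3 mice changed or those mice left out. By the treatment label the adjusted p-values were 0.2 for Nfkbiz, 0.249 for Cxcl10 and 0.318 for Sigirr, and without the 3 mice 0.0594, 0.085 and 0.12. Over all tested genes, trend calls numbered 375 by the description label, 0 by the treatment label and 56 without the 3 mice. With all libraries thinned to the smallest total, the calls of Cxcl10 (0.062) and Sigirr (0.0606) were also lost, beside total counts that were lower in the RPS groups. Both were lost with Dbp as a covariate as well (0.0636 and 0.0751), and that of Sigirr with RLE scaling (0.0512) and without the filter on low counts (0.0582). Without 1 mouse at a time, Nfkbiz kept its trend call in 19 of 20 fits (lost at 0.0594 without RS10_784), Cxcl10 in 15 and Sigirr in 8.

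The lists closest to the 10 genes held no call. Of 5 other TLR genes 2 had a higher mean at 10% RPS and 3 a lower one, among them Tlr6 at 0.16 ± 0.18 (SE) and Tlr12 at −0.13 ± 0.26 on the log2 scale. Of 10 co-receptors and chaperones 7 were higher, with Cd180, a TLR-like protein of B cells, at 0.60 ± 0.33 and Hsp90b1, the chaperone of TLRs, at 0.37 ± 0.17. Of 16 adaptors and kinases 12 were higher, with a median of 0.05, and the largest differences were lower values of Ticam2 (−0.28 ± 0.21) and Sarm1 (−0.19 ± 0.26). Among 11 genes of NOD signalling and peptide transport, 7 were higher, with the transporters Slc15a2 at 0.55 ± 0.88 and Slc15a3 at 0.30 ± 0.28.

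Of 13 tested NOD-like receptors 8 were higher, with Nlrp6, a NOD-like receptor abundant in the gut epithelium, at 0.59 ± 0.19 (adjusted p 0.154 by edgeR) and Nlrc5, an activator of MHC class I genes, at 0.58 ± 0.28 (0.321). Of 8 IKK and NF-kB subunits 3 were higher, with Relb at −0.32 ± 0.10 (0.128) and Rel at 0.23 ± 0.14 (0.435). Among the 11 genes listed as inhibitors, with the atypical IkB gene Nfkbiz counted among them, 8 were higher. All 6 tested cytokine genes had higher means at 10% RPS, with a median log2 fold change of 1.10, and 4 of them had an unadjusted p under 0.05 against 15.2% of all tested genes. Their lowest adjusted p was 0.089, for Cxcl10 (edgeR). These genes were scarce, with means over all mice from 0.317 CPM for Il10 to 5.54 CPM for Ccl20. The filter can keep a scarce gene through the diets where it is high, and Il10 was at 0.224 CPM at 0% and 0.442 CPM at 10% RPS. The number of cytokine genes with higher means may therefore partly reflect the filter. Il1a, Il6, Il12b and Cxcl2 did not pass the filter on low counts, and Ifnb1 was not analysed here.

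**Figure D3:**
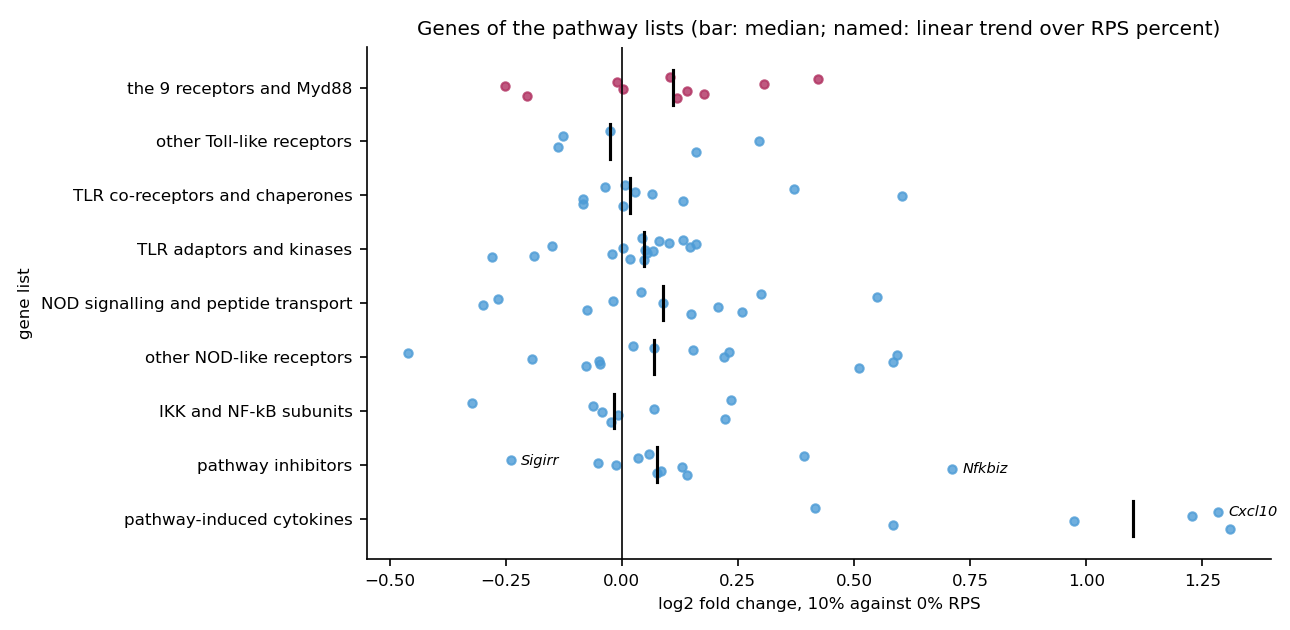
The log2 fold change at 10% against 0% RPS (horizontal axis) of each tested gene (points) in the receptor set and in 8 pathway lists (vertical axis), with the list's median as a bar; genes with a called linear trend are named. The receptor set has a median of 0.11, and the 6 cytokine genes all lie above 0 with a median of 1.10. These cytokine genes are scarce, at means of 0.317 to 5.54 CPM, and the filter can keep a scarce gene through the diets where it is high.

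Marker lists of 12 cell types or states were scored as the mean log2 CPM of their genes in each mouse, to describe which cells each receptor followed. The lists were chosen with earlier results of these data known, so differences in their scores between diets are descriptive. At 10% against 0% RPS, no list had an adjusted p at or below 0.05 (exact two-sided permutation test of 5 against 5 mice, smallest possible p 0.0079, adjusted over 12 lists). The lowest adjusted p was 0.0635, for the epithelium (higher by 0.356), surface colonocyte (higher by 0.433) and interferon-stimulated (higher by 0.738) lists. In the epithelium list 9 of 10 genes had a higher mean, with a median log2 fold change of 0.15. The largest were Cdx2 (1.44) and Krt20 (0.91), while Epcam was at 0.05 and Lgals4 at −0.02. Surface colonocyte scores of all 5 mice at 10% RPS lay above every 0% RPS mouse. Macrophage scores differed by −0.356, with an adjusted p of 0.167, endothelium scores by −0.224 (0.229), B cell scores by 0.775 (0.463) and enteric neuron and glia scores by −0.200 (0.463). T cell, dendritic cell, smooth muscle and fibroblast scores differed by 0.110, 0.0137, 0.0171 and 0.0411, and pancreas scores by 1.31, with adjusted p-values of 0.643 or more.

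Each of the 10 genes was then correlated with the 12 scores over the 20 mice, 120 relations in all, with 100000 permutations and adjustment over the 120. By Pearson's r, 5 relations of 4 genes had an adjusted p at or below 0.05. The points share their libraries and depth, and the 4 diets are pooled, so the value on deviations from the diet means is given beside each.

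Tlr9 followed the B cell score (Ms4a1, Cd79a, Cd79b and others). Pearson's r was 0.807 and Spearman's rho 0.788 (n = 20, permutation test, adjusted p 0.0012 and 0.0066), r was 0.787 within the diets and 0.776 without the 2 mice farthest from the median score, RS10_708 and RS10_748. Of the tested genes outside the list, 0.397% had an r with the B cell score as high or higher. The B cell score of RS10_708, a 0% RPS mouse, was 0.585, while the other 19 mice had 2.76 or more, and that mouse also had the lowest Tlr9, 0.573 CPM. Tlr9 also followed the T cell score (r = 0.739, rho = 0.635, permutation test, adjusted p 0.0054 and 0.0676), with r = 0.537 without the 2 farthest mice and 0.768 within the diets.

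Tlr7 followed the macrophage score, with r = 0.763 and rho = 0.774 (n = 20, permutation test, adjusted p 0.003 and 0.0066). Within the diets r was 0.652, and without RS10_703 and RS10_708, the 2 mice farthest from the median, 0.620. Of the tested genes outside the list, 0.173% had an r with this score as high or higher. RS10_708 had both the highest macrophage score, 4.90, and the highest Tlr7, 3.38 CPM.

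Nod2 followed the T cell score, with r = 0.704 and rho = 0.671 (n = 20, permutation test, adjusted p 0.013 and 0.0403), r = 0.749 without the 2 farthest mice and 0.712 within the diets. With the interferon-stimulated score its r was 0.632 and its rho 0.720, where the adjusted p was 0.0547 for r and 0.0177 for rho, and r was 0.593 within the diets. T cell markers were scarce, with a mean log2 CPM of 0.872 over the list at 0% RPS.

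Tlr2 was lowest in the mice with the highest epithelial score. Its r was −0.757 and rho −0.725 (n = 20, permutation test, adjusted p 0.0054 and 0.0177), with r = −0.728 without RS10_707 and RS10_721 and −0.735 within the diets. Of the tested genes outside the list, 1.05% had an r with this score as low or lower. In this list Cdx2 ran from 5.77 to 84.6 CPM and Krt20 from 304 to 1387 CPM over the mice. Epcam ran only from 1440 to 1789 and Lgals4 from 4032 to 4791 CPM, so the score does not measure the amount of epithelium alone. Tlr2 also had r = −0.621 with the surface colonocyte and 0.595 with the macrophage score (permutation test, adjusted p 0.0547 for both). The highest epithelial scores, 10.2 in RS10_721 and 10.1 in RS10_784, came from libraries that also held pancreatic transcripts. For Tlr1, Tlr3, Tlr4, Tlr5, Nod1 and Myd88 no relation had an adjusted p at or below 0.05. For Tlr5 the relation with the lowest adjusted p was to the fibroblast score (r = 0.616, rho = 0.535, permutation test, adjusted p 0.0547 and 0.159), with r = 0.448 without the 2 farthest mice and 0.408 within the diets. Myd88 came closest to the interferon-stimulated score, with r = 0.338, which was 0.0863 within the diets.

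**Figure D4:**
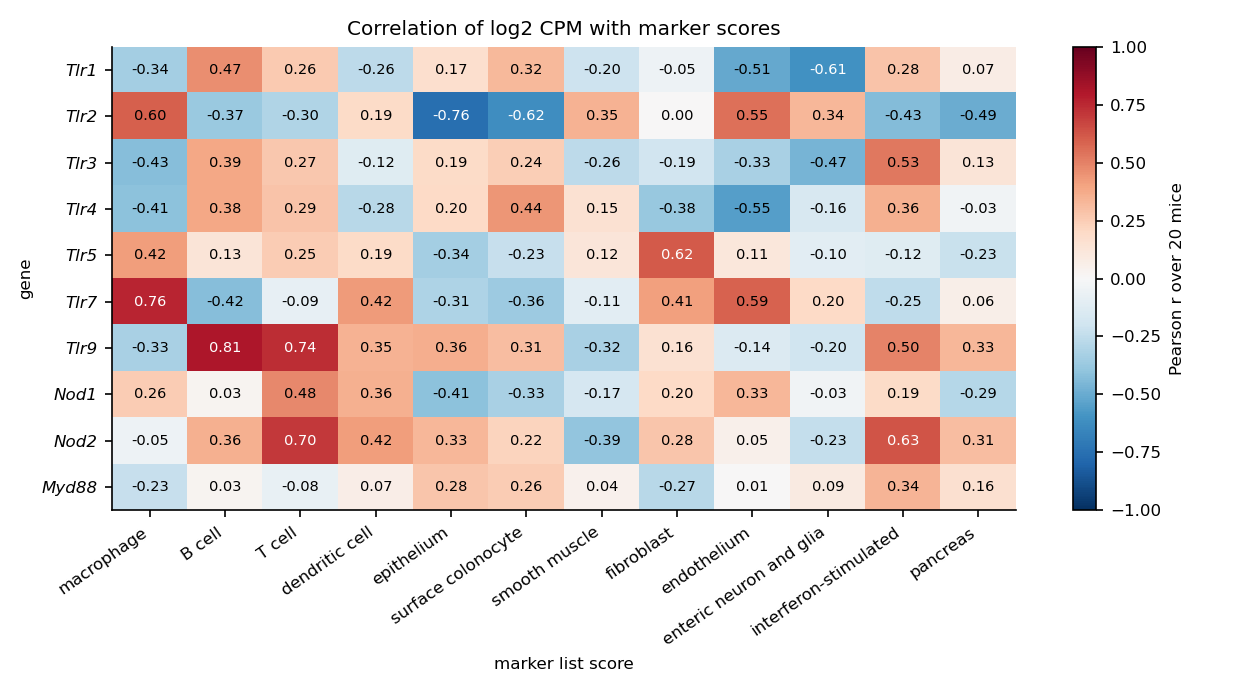
Pearson's r over 20 mice (colour and printed value) between log2 CPM of each gene (rows) and the score of each marker list (columns). The largest values are Tlr9 with the B cell score (0.81), Tlr7 with the macrophage score (0.76), Tlr2 with the epithelium score (−0.76), Tlr9 with the T cell score (0.74) and Nod2 with the T cell score (0.70).

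**Figure D5:**
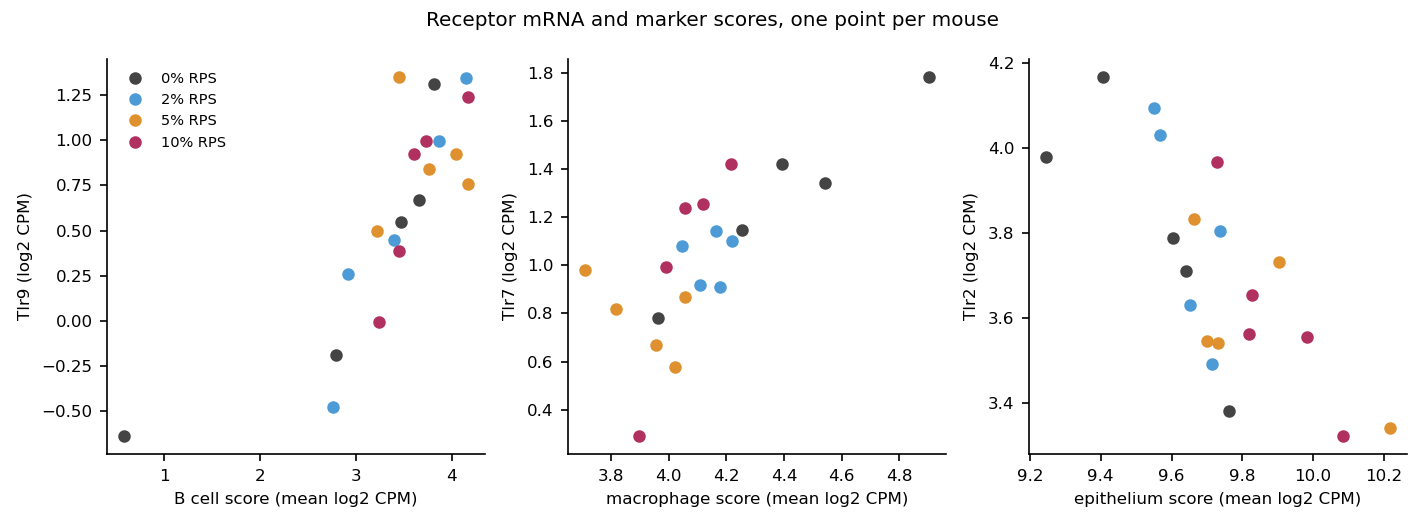
Log2 CPM of Tlr9, Tlr7 and Tlr2 (vertical axes) against the B cell, macrophage and epithelium scores (horizontal axes, mean log2 CPM of the list), with one point per mouse coloured by diet. The mouse at the lower left of the Tlr9 panel is RS10_708, with a B cell score of 0.585, and the same mouse is at the upper right of the Tlr7 panel.

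The 10 genes did not move as a unit. Over their 45 pairs the median r of log2 CPM across the 20 mice was 0.0859, with 26 pairs above 0 and 19 below. The pair with the highest r was Tlr4 and Myd88 (r = 0.604, rho = 0.516), and r fell to 0.344 without the 2 farthest mice. The lowest was Tlr5 and Myd88 (r = −0.612, rho = −0.490), with −0.494 without the 2 farthest mice. No pair had an adjusted p at or below 0.05 (permutation test, adjusted over 45 pairs), and the lowest was 0.113.

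The tested genes most like each receptor over the mice, by Pearson's r among 15231 genes of at least 1 CPM, are given as a description. For Tlr9 they were B4galnt1 (0.932), Il21r, the receptor for the lymphocyte cytokine interleukin 21 (0.925), and Sema4d (0.889). For Nod2 they were Sh3bp2 (0.904), Nlrc5 (0.900) and Tirap, an adaptor of TLR2 and TLR4 (0.878). For Tlr7 they were Lgmn, a lysosomal protease (0.820), Fcer1g, the Fc receptor gamma chain of myeloid cells (0.788), and Slc23a3 (0.780). The 3 genes for each of these receptors kept an r of at least 0.707 within the diets.

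Of the other 7 genes, Tlr1 was most like Gm16341 (0.855), St6gal1 (0.812) and Ttll5 (0.801), and Tlr2 most like Tm2d3 (0.843), Ppt1 (0.823) and Zfas1 (0.820). Tlr3 came nearest to 9130016M20Rik (0.822), Arhgef2 (0.811) and Btnl4 (0.811), and Tlr4 to Ksr1 (0.820), Prr13 (0.805) and 2310079G19Rik (0.802). Kansl1 (0.804), Hbp1 (0.790) and Tshz1 (0.781) were most like Tlr5. Mtcp1 (0.773), Pot1b (0.766) and Rnf43 (0.761) were most like Nod1. Txndc9 (0.832), Lrrc75a (0.811) and Fastkd5 (0.810) were most like Myd88.

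Promoters were read for motifs of the factors that the pathway ends in. RefSeq windows of 250 bases before the start (GRCm38.p6) were held for 8 of the 10 genes, Tlr1, Tlr2, Tlr3, Tlr5, Tlr9, Nod1, Nod2 and Myd88. The NF-kB motif was searched as GGGAA followed after any 3 bases by CC, and the interferon response motif as GAAA followed after any 2 bases by GAAA, on both strands, and 4.94% and 2.98% of all 32851 windows held them. Tlr2 and Tlr5 held the first and Myd88 the second, and no window held both. These 3 windows are shown to place the matches, with the motif in capitals, for chr3:83841609-83841858 (minus strand), chr1:182954538-182954787 (plus strand) and chr9:119340019-119340268 (minus strand).
Tlr2: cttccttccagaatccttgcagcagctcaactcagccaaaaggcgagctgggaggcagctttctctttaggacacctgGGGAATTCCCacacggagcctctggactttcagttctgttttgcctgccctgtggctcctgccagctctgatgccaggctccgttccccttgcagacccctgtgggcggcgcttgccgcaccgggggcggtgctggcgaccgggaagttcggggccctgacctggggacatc
Tlr5: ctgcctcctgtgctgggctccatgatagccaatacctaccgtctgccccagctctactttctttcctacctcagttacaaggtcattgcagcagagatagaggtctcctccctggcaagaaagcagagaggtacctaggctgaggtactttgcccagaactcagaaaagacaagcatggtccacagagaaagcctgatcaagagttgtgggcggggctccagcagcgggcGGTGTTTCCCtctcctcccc
Myd88: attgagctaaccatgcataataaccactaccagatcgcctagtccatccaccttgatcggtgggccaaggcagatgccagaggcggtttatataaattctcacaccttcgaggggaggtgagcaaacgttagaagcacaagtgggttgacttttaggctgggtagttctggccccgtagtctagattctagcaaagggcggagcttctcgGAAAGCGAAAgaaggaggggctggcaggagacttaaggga
The match of Tlr2 begins 172 bases before the start and reads as a match on both strands, that of Tlr5 begins 20 bases before it on the opposite strand, and that of Myd88 begins 40 bases before it. A motif of ETS factors, GAGGAAGT, present in 2.44% of windows, matched only Tlr1, 23 bases before one of its 2 starts.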

How the data were processed

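RNA from whole distal colon of 20 mice, 1 library per mouse, was measured by single-end stranded mRNA sequencing (TruSeq Stranded mRNA). The authors trimmed low-quality bases, removed reads with several ambiguous bases, mapped reads to GRCm39 in CLC Genomics Workbench and deposited raw counts per gene, not normalised and not pooled. The annotation release is not given in the sources used here. Totals of 18.4 to 35 megacounts per mouse set the precision of scarce genes.

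The members and gene lists were chosen with earlier results of these data known. Symbols and positions came from GENCODE vM39. Genes were filtered with filterByExpr (minimum count 10), which kept 17893 of 26004 genes with at least 1 count, and scaled by TMM. The main test was the edgeR 4.0.16 quasi-likelihood F-test (robust) in one fit over the 4 diets, grouped by the description label, with Benjamini-Hochberg adjustment over all tested genes. Calls needed an adjusted p of at most 0.05 and, between diets, a fold of at least 1.5. DESeq2 1.42.0 was an alternative, in R 4.3.3. CPM used TMM-scaled totals, and log2 CPM a prior count of 2. Scores and correlations were computed in Python with scipy, with member genes left out of the scores, and at least 3 tested genes per score. The neutrophil list was not scored.

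All 10 members were named. Of each pathway list, genes called or with a trend were named, otherwise the 2 tested genes of at least 1 CPM with the largest change at 10% RPS, and for each member the 3 genes most alike. Genes in the macrophage, B cell, epithelium and cytokine lists outside this rule were named after their values were seen. The test was checked on simulated counts. Alternatives covered the test, scaling, the filter, the labels of 3 mice, each mouse left out, the fold threshold, depth, the diets in the fit, Dbp as a covariate, z-scores and the prior count. Dbp stood in for time of day, which the sources used here do not give, and whether it tracked time in these mice was not tested. Within-diet pairs of mice were compared by chi-square, and none was the same library deposited again (lowest statistic per degree of freedom 9.1, over 40 pairs).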

Additional observations from a re-analysis of the deposited data

Results flagged for a closer look

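In groups of 5 mice, a highest or lowest value was flagged where its gap to the next value exceeded Dixon's 95% limit. Of 88 groups examined, 8 passed, where chance alone flags about 1 in 20, or 4.4. Among the receptors, Nod1 in RS10_715 (2% RPS) was at 41.8 CPM, the next mouse at 33.0, and Nod2 in RS10_725 (10% RPS) at 3.58 CPM, the next at 2.08. RS10_725 is one of the mice whose labels disagree. The other 6 were marker scores (mean log2 CPM). The dendritic cell score of RS10_704 (0% RPS) was low at 0.713, the surface colonocyte score of RS10_709 (2% RPS) low at 8.95 and the smooth muscle score of RS10_721 (5% RPS) low at 9.28. Pancreas scores were high at 3.15 in RS10_715, 9.91 in RS10_721 and 6.85 in RS10_784 (10% RPS).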

How the results depend on the processing

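The number of the 10 genes called was 0 in all 5 tests under every alternative run. Changes of direction occurred only in values near 0. The log2 fold change of Tlr5 at 10% RPS was −0.0408 with total count scaling, −0.0078 without the filter and −0.0377 by the treatment label, and −0.0463 to 0.0675 without 1 mouse at a time. Nod1 at 10% RPS was at 0.0007 by DESeq2, 0.0079 after thinning and −0.0709 to 0.0334 without 1 mouse. Tlr1 at 5% RPS was at −0.0217 with total count scaling, −0.044 by the treatment label, −0.0155 without the 3 mice whose labels disagree, −0.0007 with Dbp as covariate and −0.0486 to 0.062 without 1 mouse. Nod1 at 5% RPS was at 0.0243 by the treatment label, 0.001 after thinning and −0.0658 to 0.0175 without 1 mouse. The trend of Tlr5 was 0.001 without the 3 mice, 0.0462 after thinning and −0.084 to 0.0306 without 1 mouse, and that of Nod1 −0.0973 to 0.0043. The cause was not tested.

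Score differences at 10% RPS changed sign for T cells (−0.1333 by the treatment label, −0.0304 without the 3 mice, −0.0738 to 0.2673 without 1 mouse), dendritic cells (−0.0484, −0.0135 and −0.1237 to 0.0882), fibroblasts (−0.0368 by the treatment label, −0.0375 to 0.1577 without 1 mouse) and smooth muscle (−0.0659 to 0.1001). The number of marker lists with a difference at 10% RPS was 0 to 3 without 1 mouse. It was 3 without RS10_704, where the macrophage (−0.4676), epithelium (0.4138) and surface colonocyte (0.4824) lists passed. Over all genes, calls at 10% RPS numbered 7 by edgeR and 210 by DESeq2, 0 by the treatment label and 0 without the 3 mice, and 188 without RS10_727. No paired analysis was possible because each mouse number belongs to 1 animal and diets share none. Counts of 17 to 120 per mouse limited Tlr9, Tlr5, Tlr7 and Nod2.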
